A study of Mus musculus with 12 samples.

Results

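Livers of mice lacking Tmprss6 were compared with livers of iron deficient control littermates, all injected with saline, on Illumina MouseWG-6 v2 BeadChips. The comparison held 6 of the 12 arrays of the series, 3 Tmprss6 KO livers (KO 1 to KO 3) against 3 control livers with iron deficiency anemia (IDA 1 to IDA 3). Its members were the probes with a detection p below 0.01 on at least 1 of these 6 arrays, which were 15287 of the 45281 probes of the array. After keeping the brightest probe of each gene symbol they came to 10921 measured features, of which 8824 were named genes and 2097 were probes with no symbol. All mice were of a mixed 129/Ola × C57BL/6 background and 7 weeks old. KO mice had received an iron replete diet and wild type littermates an iron deficient diet for 3 weeks from the age of 4 weeks, so that genotype and diet changed together and cannot be told apart. Livers were taken 6 hours after the injection. The other 6 arrays were livers of KO and IDA mice injected with lipopolysaccharide (LPS) at 0.1 mg/kg. They entered the fit for its estimate of the spread and served as a second set of mice.

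Tmprss6 encodes matriptase-2, a serine protease of the hepatocyte membrane that restrains the bone morphogenetic protein (BMP) pathway upstream of hepcidin. BMP ligands bind receptors at the cell surface with hemojuvelin as a co-receptor, the receptors phosphorylate SMAD1, SMAD5 and SMAD9, and these proteins enter the nucleus and switch on Hamp together with feedback genes such as Id1, Smad6 and Atoh8. Hepcidin, the product of Hamp, is the liver hormone that blocks iron export through ferroportin. In iron deficiency a normal liver lowers hepcidin, and mice or humans without the protease keep it high and become anemic.

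The arrays themselves were examined before the values. The study's methods describe the KO mice as males, but Xist, the RNA of the inactive X chromosome, was strong in IDA 1, KO 1 and KO 2, at 11.93, 12.05 and 11.84 on the log2 scale of normalized intensity. The Y-linked gene Eif2s3y was at 4.83, 4.94 and 4.80 in the same livers, below detection, and at 9.27 to 9.68 in the other 3. KO 3 had Eif2s3y at 9.68 and a weaker Xist signal of 6.73. The livers with strong Xist were therefore 1 of 3 in the IDA group and 2 of 3 in the KO group. Main counts are given with and without these 3 livers, and differences are also given within the Xist-positive livers (KO 1 and KO 2 against IDA 1) and within the others (KO 3 against IDA 2 and IDA 3). Between 12721 and 13272 probes were detected per IDA liver and between 12986 and 14334 per KO liver (exact two-sided permutation test, p = 0.3, where 0.1 is the smallest p that 3 against 3 can give). Which samples shared a BeadChip was not given in the sources used here.

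The hepcidin pair carries the largest difference of the comparison, and its promoters are shown because they differ at a known BMP response element. Mice have 2 neighbouring hepcidin genes on chromosome 7, Hamp and Hamp2. The stretches below are from RefSeq for build GRCm38.p6 and lie on the minus strand, at chr7:30944090-30944209 for Hamp (bases -180 to -61 from the gene start) and at chr7:30924239-30924358 for Hamp2 (bases -177 to -58). Capitals mark GGCGCC, the core of the BMP response element, then TTCNNNGAA, the pattern bound by STAT factors, then TGANTCA, the AP-1 pattern, each searched on both strands.
Hamp: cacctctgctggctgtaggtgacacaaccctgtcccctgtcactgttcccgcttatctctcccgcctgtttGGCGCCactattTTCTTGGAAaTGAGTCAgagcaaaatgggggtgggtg
Hamp2: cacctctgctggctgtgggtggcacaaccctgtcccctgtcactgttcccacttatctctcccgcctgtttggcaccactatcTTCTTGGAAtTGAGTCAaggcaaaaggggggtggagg

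The 2 stretches were identical at 109 of 120 bases (90.8%). Counted from 1 at the 5′ end of the stretch, with the Hamp base first, one of the 11 differences was G75A, inside the GGCGCC at bases 72 to 77 of Hamp, so that these letters were not in the Hamp2 stretch. TTCNNNGAA at bases 84 to 92 and TGANTCA at bases 94 to 100 were in both. Of all 32851 mouse promoter windows, reaching from 250 bases before to 50 bases after the start, 11.9% held GGCGCC, 8.3% held TTCNNNGAA and 7.81% held TGANTCA. A match is a string of letters and not a measured binding site.

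The targeted gene was checked first. Tmprss6 stood at 11.21, 10.29 and 10.39 in IDA 1 to 3 and at 8.39, 8.16 and 8.22 in KO 1 to 3. The groups did not overlap, and the log2 ratio of KO to IDA was -2.38 ± 0.27 (SE, n = 3 per group, adjusted p = 0.00209). Throughout, the test is limma's moderated test and the adjusted p is Benjamini-Hochberg over all 11571 features of the fit. Of these features, 11% had every KO liver above every IDA liver in saline, and 11.3% had every KO liver below. A second probe of Tmprss6 showed a log2 ratio of -2.28. Both probes remained detected on all 3 KO arrays, and whether they lie in the deleted part is not given in the sources used here.

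The largest fall among called genes belonged to a gene of the same region of chromosome 15. Tomm22 encodes the central receptor of the mitochondrial outer membrane import complex. It stood at 11.41, 10.63 and 10.53 in IDA and at 7.94, 7.34 and 7.33 in KO livers, a log2 ratio of -3.32 ± 0.30 (adjusted p = 0.000514). Every KO liver was below every IDA liver by at least 2.58. The other probe of Tomm22 was not detected on any of the 6 arrays, at 4.86 to 5.01 in IDA and 4.88 to 4.98 in KO, so the finding rests on 1 probe. Tomm22 was the 21st measured gene after Tmprss6 along the chromosome. It was the only gene called in saline among the 120 measured genes that lie nearest (60 on each side). By adjusted p below 0.05 alone 3 passed, Tomm22, Ift27 (log2 ratio -0.65, adjusted p = 0.0332) and Csnk1e (0.66, adjusted p = 0.0319). After LPS 5 of these neighbours were called. Among them was Cdc42ep1, at -2.25 (adjusted p = 0.000222) after LPS and -1.13 (adjusted p = 0.0538) in saline. No other of the 19 measured members of the mitochondrial protein import list passed the test.

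Hepcidin messages were far higher in KO livers. Hamp was at 4.94, 7.88 and 8.91 in IDA 1 to 3 and at 15.75, 15.59 and 15.76 in KO 1 to 3. It was detected on 2 of 3 IDA arrays and on all KO arrays, and the KO values lay close together while the IDA values spread widely. The log2 ratio was 8.46 ± 0.71 (adjusted p = 0.000469), and 7.89 with the undetected IDA liver set to the lowest detected signal of its array. The undetected liver was IDA 1, the only Xist-positive IDA liver. Within the Xist-negative livers, where Hamp was detected in both IDA livers, the difference was 7.36. Hamp2 was already detected in every IDA liver, at 9.96, 10.56 and 11.92, and rose to 15.58, 15.65 and 15.50, a log2 ratio of 4.76 ± 0.40 (adjusted p = 0.000469). In KO livers the raw signal of Hamp reached 79.4% to 87.1% of the brightest probe on the array and that of Hamp2 reached 71.3% to 83.2%, near the top of the scale. The 2 probes did not follow each other. In IDA 1 Hamp2 was at 9.96 while Hamp was undetected, and in the LPS-injected IDA livers Hamp was at 13.82, 13.77 and 13.49 while Hamp2 lay between 7.93 and 8.41.

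Several feedback genes of the BMP-SMAD pathway rose with hepcidin. Of the 22 measured members of the hepcidin and BMP-SMAD list, 7 passed an adjusted p of 0.05 upward and 1, Tmprss6, downward, where 1.59% of all features passed upward and 0.907% downward. The median log2 ratio of the 22 was 0.27 against -0.01 over all features. Id1, an inhibitor of basic helix-loop-helix factors and a classic BMP target, was at 6.56, 7.93 and 7.87 in IDA and at 9.56, 10.49 and 10.28 in KO livers (log2 ratio 2.66 ± 0.33, adjusted p = 0.00372). Id3, of the same family, was at 7.04, 6.83 and 6.92 against 7.93, 8.75 and 8.11 (log2 ratio 1.33 ± 0.30, adjusted p = 0.041). In both genes all KO livers were above all IDA livers.

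The transcription factor gene Atoh8, also a BMP target in hepatocytes, was not detected on any IDA array, at 5.61, 5.61 and 5.88, and was detected in all KO livers at 7.78, 7.11 and 7.47. This was at least 1.89-fold higher (adjusted p = 0.000841). For a gene undetected on every array of a group, the fold is a bound against the lowest signal among the detected probes of each array. Smad9, a signal-carrying SMAD, and Smad6, an inhibitory SMAD, were not detected in IDA livers and were detected on 2 of 3 KO arrays. Smad9 was at 4.90, 5.26 and 5.14 against 6.11, 6.23 and 6.32 (adjusted p = 0.00246), and Smad6 at 5.50, 5.60 and 5.64 against 6.13, 6.74 and 6.60 (adjusted p = 0.0311). Both lay so close to the detection limit that no fold is given. The Smad9 promoter holds GGCGCC at base -51, shown in capitals in the 60 bases at chr3:54755504-54755563 of GRCm38.p6, plus strand.
Smad9: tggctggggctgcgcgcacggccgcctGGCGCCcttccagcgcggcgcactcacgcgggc

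The receptors and upstream regulators of the pathway did not pass the test. Hfe, the hemochromatosis protein, was at 11.18, 11.12 and 10.63 in IDA and 11.11, 10.82 and 10.87 in KO livers, and the second transferrin receptor Tfr2 was at 12.10, 11.98 and 12.03 against 12.10, 11.98 and 11.91. Their log2 ratios were -0.04 ± 0.15 and -0.04 ± 0.10. The hemojuvelin gene Hjv was close to the detection limit in all 6 livers, with a log2 ratio of -0.06. Ratios of the receptor genes were -0.08 for Bmpr1a, -0.17 for Bmpr2 and 0.26 for Acvr1. The ratio was -0.08 for Neo1, which encodes the hemojuvelin-binding receptor neogenin, and -0.29 for Furin, a protease that cleaves hemojuvelin. The SMAD genes Smad1 and Smad5 were at 0.39 and -0.23, the extracellular BMP regulators Fst and Bmper at 0.54 and -0.12, and Fkbp1a, whose product binds the type I receptors, at 0.28. Id2, a further BMP target, was at 9.11, 10.67 and 9.90 against 10.23, 11.27 and 10.98, and these groups overlapped (log2 ratio 0.93 ± 0.36, adjusted p = 0.201). The upward count was 5 without the 3 Xist-positive livers, between 5 and 6 when any 1 saline liver was left out, and 4 when only the 6 saline arrays were fitted.

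**Figure D1:**
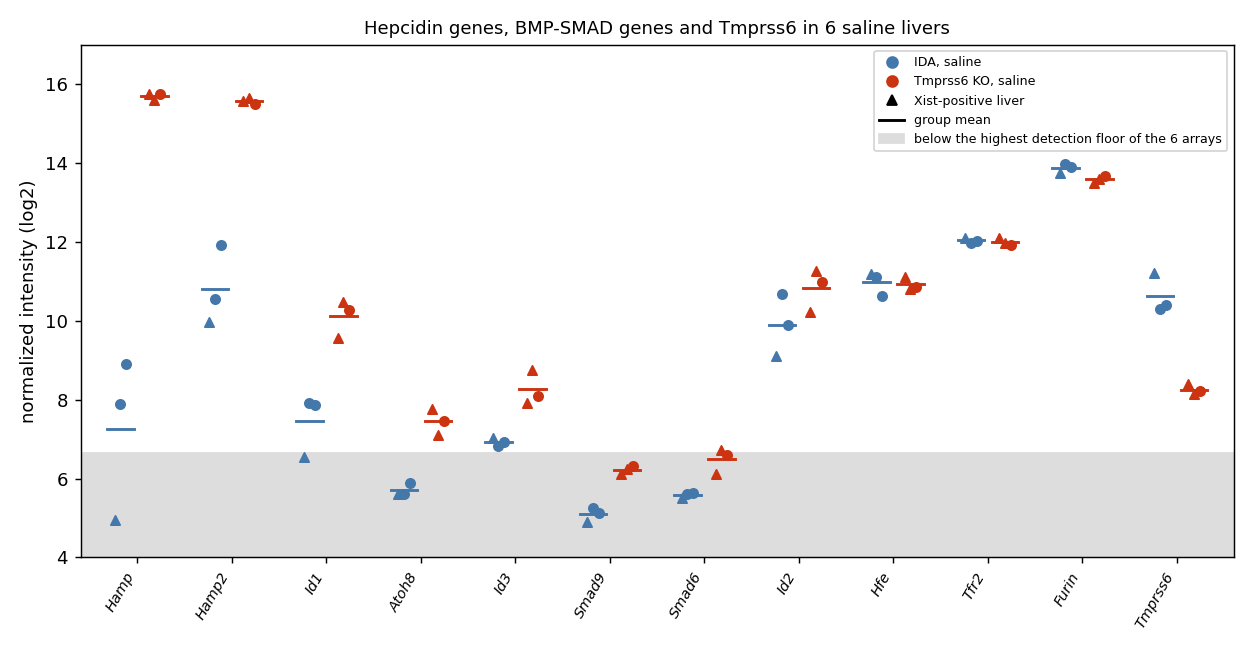
Normalized intensity (log2) of 12 genes in each saline liver, IDA in blue and KO in red, with lines at the group means and triangles for the Xist-positive livers. The KO livers lie at 15.59 to 15.76 for Hamp and 15.50 to 15.65 for Hamp2, all above the IDA livers, while Hfe and Tfr2 overlap. The grey band lies below the highest detection floor of the 6 arrays.

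Across all features, 136 were called, with an adjusted p below 0.05 and an absolute log2 ratio above 1. This was 1.18% of the features tested, with 106 higher in KO livers (0.916%) and 30 lower (0.259%). Of the 136, 105 were named genes, 82 higher and 23 lower, and 31 were probes with no symbol. The groups did not overlap in any of the 136. The median log2 ratio of the called features was 1.48 among the higher and -1.35 among the lower, and 22 higher and 3 lower features were past a log2 ratio of 2. In 71 all 6 livers had a detected signal, 28 were detected in KO livers only and 10 in IDA livers only. Of all 10921 members, 775 were detected in KO livers only and 241 in IDA livers only. The lowest detected signal was 6.21 on KO 2 and 6.28 on KO 3, 6.56 on KO 1, and 6.48 to 6.64 on the IDA arrays. A signal between these limits thus counts as detected on some arrays only. For 31 called genes 44 further probes were measured, and 43 of these had the same sign. The exception was a second probe of Tubb2b, detected in 1 liver. In 33 of the 44 the log2 ratio was also past 1 in the same direction. The number called was 215 without IDA 1, 72 without IDA 2, 65 without IDA 3, 126 without KO 1, 63 without KO 2 and 90 without KO 3. It was 73 without the 3 Xist-positive livers, of which 47 were among the 136, and 39 with only the 6 saline arrays in the fit. Of the 136, 84 differed by more than 1 on the log2 scale both within the Xist-positive livers and within the others.

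The list with the most members among the higher genes was that of immediate-early genes, which cells switch on within minutes of a stimulus without new protein synthesis. Of 39 measured members of the immediate-early and AP-1 list, 15 passed upward and none downward, and 14 were called. The median log2 ratio over the 39 was 0.80. The AP-1 subunit gene Fos was at 7.98, 6.59 and 6.95 in IDA 1 to 3 and at 9.05, 12.98 and 10.43 in KO 1 to 3 (log2 ratio 3.65 ± 0.85, adjusted p = 0.0482). Its partner Jun was at 8.67, 7.42 and 7.99 against 9.71, 10.60 and 10.22 (log2 ratio 2.15 ± 0.31, adjusted p = 0.0084). Junb was at 9.56, 9.48 and 9.27 against 10.67, 11.56 and 11.35 (log2 ratio 1.75 ± 0.29, adjusted p = 0.012). In all 3 genes KO 1 was the lowest KO liver and KO 2 the highest, yet the groups did not overlap.

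The same order of livers ran through the group. Among the 15 genes that passed, IDA 1 was the highest IDA liver in 15, KO 2 the highest KO liver in 12 and KO 1 the lowest KO liver in 12. Atf3, a stress-induced factor of the ATF family, was at 9.55, 5.28 and 6.45 in IDA and at 10.72, 11.65 and 10.90 in KO livers (log2 ratio 4.00 ± 0.88, adjusted p = 0.0385), so that IDA 1 lay nearest to the KO livers. Atf3 was undetected in IDA 2 and IDA 3, and its log2 ratio was 3.59 with these livers set to the lowest detected signal of their arrays. Within the Xist-positive livers, all detected, the difference was 1.63. Ccn1, encoding a secreted matricellular protein, was not detected on any IDA array, at 6.39, 5.35 and 5.23, and reached 8.56, 11.03 and 9.56 in KO livers, at least 9.08-fold higher (adjusted p = 0.00453). The growth arrest gene Gadd45a was at 8.38, 7.86 and 6.93 against 9.87, 11.21 and 10.47 (log2 ratio 2.79 ± 0.44, adjusted p = 0.00974). Its relative Gadd45b was at 9.08, 6.74 and 8.14 against 9.75, 11.03 and 10.38 (log2 ratio 2.40 ± 0.50, adjusted p = 0.0323).

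Other members of the list that passed included genes of enzymes and RNA-binding proteins. Zfp36, which encodes tristetraprolin and destabilises cytokine messages, was at 11.40, 11.06 and 11.15 in IDA and at 12.34, 13.85 and 12.84 in KO livers (log2 ratio 1.81 ± 0.33, adjusted p = 0.0202). Dusp6, a phosphatase of the MAP kinase ERK, was at 11.91, 11.85 and 11.12 against 13.39, 13.58 and 13.34 (log2 ratio 1.81 ± 0.19, adjusted p = 0.00123). All KO livers were above all IDA livers for both genes. Dusp1, a MAP kinase phosphatase of broader range, was at 12.90, 11.22 and 12.21 against 13.17, 13.94 and 14.12 (log2 ratio 1.64 ± 0.35, adjusted p = 0.0365), and KO 1 exceeded IDA 1 by 0.27 only. The other 5 members that passed, Ier3, Klf6, Plk3, Csrnp1 and Zfp36l1, had log2 ratios of 1.53, 1.47, 1.43, 1.21 and 0.70.

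The count of early genes past the test depended on single livers. It was 20 without IDA 1, 5 without IDA 2, 4 without IDA 3, 5 without KO 2 and 6 without KO 3. It was 8 without the 3 Xist-positive livers and 4 with only the 6 saline arrays in the fit. Of the integrated stress and unfolded protein response list, 3 of 29 members passed upward and none downward, namely Atf3, Ppp1r15a, which dephosphorylates the translation factor eIF2, and Ddit3, which encodes CHOP. Ppp1r15a was at 9.11, 8.94 and 8.61 against 10.04, 10.43 and 10.28 (log2 ratio 1.37 ± 0.23, adjusted p = 0.0136), and the log2 ratio of Ddit3 was 0.95 ± 0.19 (adjusted p = 0.0282). Of 66 genes called higher that have a promoter window in the RefSeq table, 7 (10.6%) held TGACGTCA, the cyclic AMP response element, on either strand, and 1.79% of all windows did. These 7 included Dusp1, Ppp1r15a, Pnpla3 and Slc25a25. GGCGCC was in 17 of the 66 (25.8%), Hamp and Smad9 among them, TTCNNNGAA in 5 (7.58%) and the AP-1 pattern TGANTCA in 6 (9.09%), beside 11.9%, 8.3% and 7.81% of all windows. Of 16 genes called lower with a window, 3 held TGANTCA and 0 held any of the other 3 motifs. A called gene was counted when any of its windows held the motif, while the share of all windows counts each window once. That share also covers genes not measured here, so the 2 kinds of share are not strictly comparable.

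Histone genes came next by number. Replication-dependent histone genes lie in clusters, have messages without a poly(A) tail in dividing cells, and supply histones during DNA synthesis. By the study's methods the RNA was copied from an oligo(dT) primer, which starts at a poly(A) tail. Which histone messages these probes report therefore cannot be told. All 40 measured members had a positive log2 ratio, from 0.01 to 2.55 with a median of 0.46, and 12 passed upward and were called, while none passed downward. Of the 12, 9 encode histone H4 and 3 encode histone H3. H4c6 was at 8.60, 7.57 and 7.51 in IDA and at 9.45, 10.98 and 9.96 in KO livers (log2 ratio 2.24 ± 0.40, adjusted p = 0.019). H4c18 was at 8.08, 7.16 and 6.56 against 9.09, 10.12 and 9.22 (log2 ratio 2.21 ± 0.40, adjusted p = 0.0179). H4c1 was at 9.90, 9.41 and 9.18 against 10.68, 11.71 and 11.04 (log2 ratio 1.65 ± 0.29, adjusted p = 0.016). In each of the 12, IDA 1 was the highest IDA liver, KO 2 the highest KO liver and KO 1 the lowest KO liver.

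H4c2 was undetected in IDA livers, at 5.18, 4.98 and 5.04, and at 6.78, 8.60 and 7.48 in KO livers, at least 2.12-fold higher (adjusted p = 0.012). H3c7 was undetected in IDA livers too, at 6.47, 5.43 and 5.46, and at 7.19, 7.49 and 7.19 in KO livers, at least 1.69-fold higher (adjusted p = 0.019), and H3c1 was at least 1.51-fold higher. The other called members, H4c3, H4c17, H4c12, H4c9, H4c11 and H3c6, had log2 ratios of 2.32, 2.09, 1.88, 1.43, 1.41 and 1.29. All of them lie on chromosome 13, where 18 of 336 measured genes were called (5.36%). The H4 genes encode the same protein and their messages are much alike, so signal shared between their probes cannot be told apart. The histone count was 15 without IDA 1, 1 without IDA 2, 1 without IDA 3, 1 without KO 2 and 7 without KO 3. It was 4 without the Xist-positive livers and 0 with only the saline arrays in the fit.

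**Figure D2:**
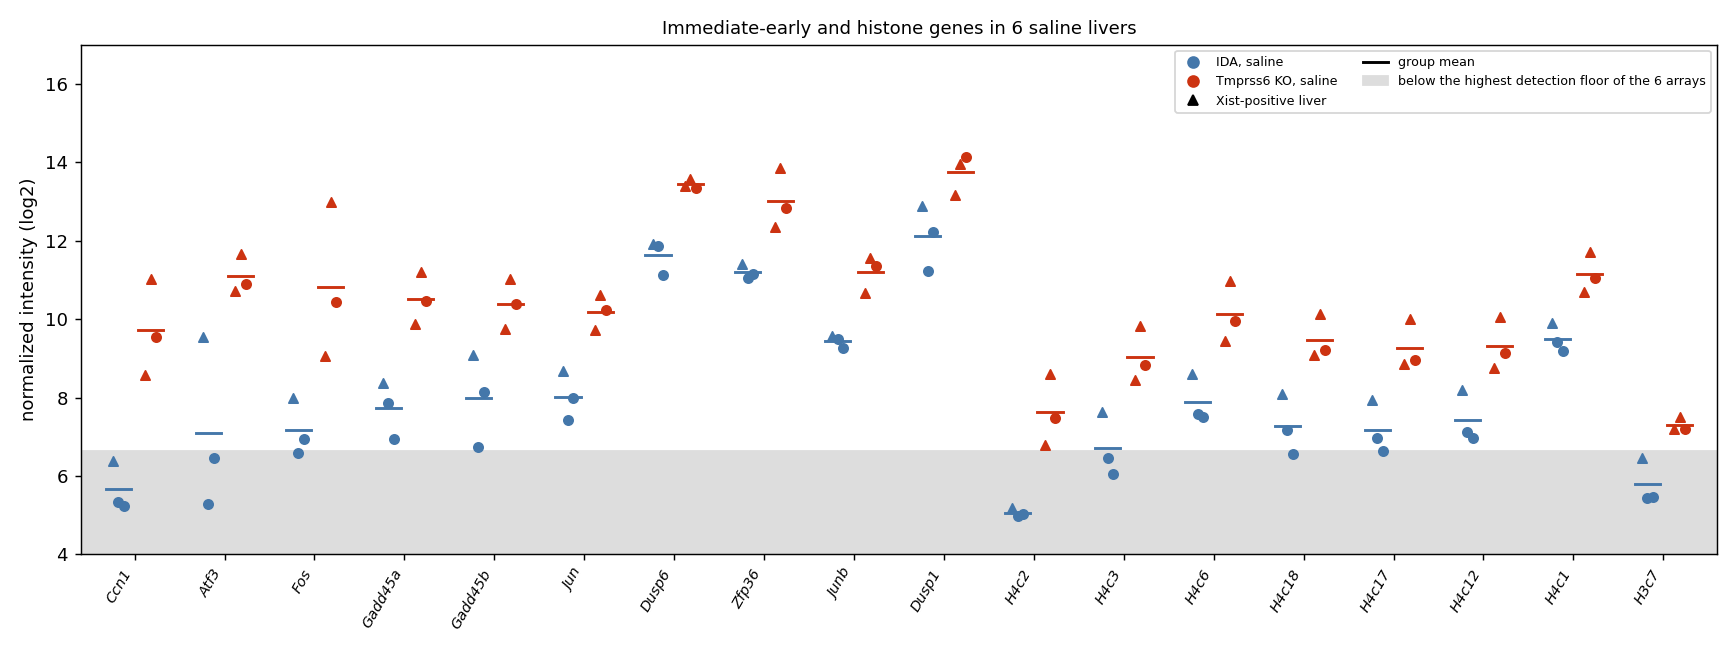
Normalized intensity (log2) of 10 immediate-early genes and 8 histone genes in each saline liver, with group means as lines and Xist-positive livers as triangles. IDA 1 is the highest IDA liver in every gene, and no KO liver falls to the level of an IDA liver of the same gene.

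Cell cycle genes were represented by 3 of 20 measured members, all upward. Ccnd1, which encodes the G1 cyclin D1, was at 11.65, 9.33 and 9.09 in IDA and at 12.39, 12.46 and 12.61 in KO livers (log2 ratio 2.46 ± 0.54, adjusted p = 0.0373). IDA 1 again lay near the KO livers, and the difference was 0.77 within the Xist-positive livers and 3.39 within the others. Mcm6 and Mcm2, subunits of the replicative helicase, were undetected in all IDA livers and detected in all KO livers. Mcm6 was at 6.34, 5.84 and 5.81 against 8.63, 7.53 and 7.30, at least 2.44-fold higher (adjusted p = 0.0342), and Mcm2 was at least 1.45-fold higher (adjusted p = 0.0354). Efna1, a membrane ligand of Eph receptors, was at 10.88, 10.12 and 9.62 against 12.57, 12.79 and 13.02 (log2 ratio 2.58 ± 0.28, adjusted p = 0.00149), and no other of the 9 measured ephrin and Eph receptor genes passed. Snai2, a zinc finger repressor, was at 8.03, 7.78 and 7.79 against 9.01, 9.62 and 9.60 (log2 ratio 1.55 ± 0.22, adjusted p = 0.0084).

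In the list for glucose output, glycogen and insulin response 5 of 30 measured members passed, all upward, and the median log2 ratio of the 30 was 0.09. Irs2, an adaptor of the insulin receptor, was at 10.22, 9.25 and 8.50 in IDA and at 11.34, 11.17 and 11.37 in KO livers (log2 ratio 1.97 ± 0.43, adjusted p = 0.0386). Igfbp1, an insulin-repressed binding protein of insulin-like growth factors, was at 9.41, 8.24 and 9.23 against 10.41, 10.52 and 10.78 (log2 ratio 1.61 ± 0.31, adjusted p = 0.0229). Pdk4, which inhibits pyruvate dehydrogenase, was at 8.45, 7.54 and 8.56 against 9.79, 9.98 and 9.82 (log2 ratio 1.68 ± 0.39, adjusted p = 0.0489). The glucose-responsive gene Txnip and the pseudokinase gene Trib1 had log2 ratios of 1.61 ± 0.35 and 1.27 ± 0.21. This count was 1 without the Xist-positive livers, 0 with only the saline arrays, 2 without IDA 2, IDA 3 or KO 1, and 1 without KO 2 or KO 3.

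Genes of lipid handling changed singly. Pnpla3, which encodes a lipid droplet hydrolase, was at 7.79, 7.85 and 8.53 in IDA and at 10.49, 10.32 and 12.40 in KO livers (log2 ratio 3.01 ± 0.55, adjusted p = 0.0192), and it was the only one of 36 measured cholesterol and lipid synthesis genes to pass. Of 23 apolipoprotein and lipase genes 2 passed, both upward, and they are neighbours on chromosome 9. Apoa4 was at 14.17, 12.44 and 12.76 against 15.23, 14.60 and 15.42 (log2 ratio 1.96 ± 0.38, adjusted p = 0.0244) and Apoa5 at 10.95, 10.53 and 10.89 against 12.24, 11.87 and 11.80 (log2 ratio 1.18 ± 0.16, adjusted p = 0.00482). Hilpda, a lipid droplet protein induced by hypoxia, was at 9.56, 9.24 and 9.55 against 11.33, 11.32 and 11.93 (log2 ratio 2.07 ± 0.39, adjusted p = 0.0224). Depp1, a FOXO target gene, was at 11.47, 12.28 and 11.78 against 13.38, 14.27 and 14.28 (log2 ratio 2.13 ± 0.31, adjusted p = 0.00838), and Slc25a25, a mitochondrial ATP-Mg carrier, had a log2 ratio of 1.96 ± 0.34. Of 23 hypoxia-inducible factor targets 2 passed, both upward. They were P4ha1, a prolyl hydroxylase subunit of collagen synthesis (log2 ratio 1.10 ± 0.24), and the vascular growth factor gene Vegfa (log2 ratio 0.86 ± 0.13). A second probe of P4ha1, detected in all 6 livers, had a log2 ratio of 0.23.

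Genes of cytokine signalling showed few changes, in both directions. Irak2, a kinase of the Toll-like receptor and interleukin 1 pathway, was at 8.96, 8.78 and 8.49 in IDA and at 9.71, 10.12 and 10.15 in KO livers (log2 ratio 1.25 ± 0.21, adjusted p = 0.012), the only one of 24 Toll-like receptor signalling genes to pass. The JAK-STAT inhibitor gene Cish was at 8.82, 8.43 and 8.19 against 10.24, 9.62 and 9.18 (log2 ratio 1.20 ± 0.28, adjusted p = 0.0478), and Ptpn2, a phosphatase of JAK kinases, at 6.65, 5.69 and 6.19 against 7.45, 6.97 and 7.32. The chemokine gene Ccl4 was undetected in IDA livers, at 5.32, 5.07 and 5.20, and at 6.57, 8.05 and 6.35 in KO livers, at least 1.37-fold higher (adjusted p = 0.0246). Among 22 interleukin and receptor genes 1 passed upward, Il6st, the signal-transducing chain of the interleukin 6 receptor (log2 ratio 0.57 ± 0.13, adjusted p = 0.0482), and 2 passed downward. These were Il6ra, the ligand-binding chain, at 11.24, 11.42 and 11.40 against 10.52, 10.45 and 10.46 (log2 ratio -0.88 ± 0.14, adjusted p = 0.0117), and Il1r1, the interleukin 1 receptor.

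Of 16 circadian clock and output genes 2 passed upward, the repressor genes Bhlhe40 (log2 ratio 1.25 ± 0.25) and Per1 (log2 ratio 0.82 ± 0.16), and Avpr1a passed downward. None of 25 type I interferon-stimulated genes, 23 acute-phase protein genes, 15 NF-kB subunits and targets, 17 heat shock genes or 14 genes of MHC class I presentation passed in either direction. Their median log2 ratios were -0.0014, -0.15, -0.17, 0.21 and -0.06. The same held for 33 respiratory chain, 40 conjugation enzyme, 28 bile acid and 30 extracellular matrix genes, with medians of 0.01, 0.01, -0.14 and 0.24. A gene that misses the threshold is not shown to be equal between the groups.

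**Figure D3:**
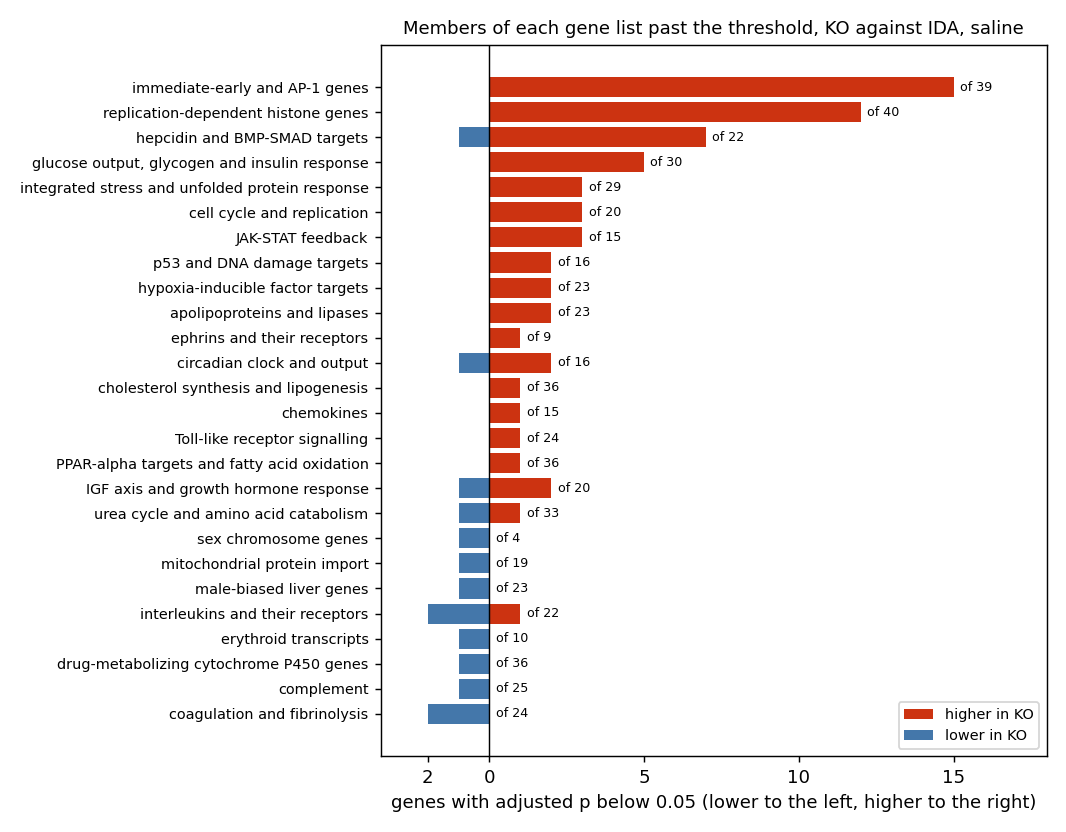
Number of genes past an adjusted p of 0.05 in each pathway list with at least 1 such gene, higher in KO to the right and lower to the left, with the number of measured members beside each bar. The early gene, histone and hepcidin lists lead with 15, 12 and 7 genes higher.

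Among the genes lower in KO livers, those bright enough to be measured on all 6 arrays included C9, Avpr1a, Egfr and Fkbp5. C9, the pore-forming terminal complement component made by hepatocytes, was at 12.42, 12.33 and 12.27 in IDA and at 9.97, 10.33 and 10.19 in KO livers (log2 ratio -2.17 ± 0.33, adjusted p = 0.00942), with groups 1.93 apart at the nearest. No other of the 25 measured complement genes passed. Avpr1a, the hepatic vasopressin receptor, was at 9.68, 10.43 and 10.25 against 8.39, 8.80 and 9.04 (log2 ratio -1.37 ± 0.23, adjusted p = 0.0121). Egfr, the epidermal growth factor receptor, was at 11.89, 12.40 and 11.94 against 10.67, 10.33 and 11.30 (log2 ratio -1.31 ± 0.23, adjusted p = 0.016), and 4 further detected probes of Egfr had log2 ratios between -1.08 and -1.43. Fkbp5, a glucocorticoid-induced co-chaperone, was at 10.18, 10.90 and 10.90 against 9.46, 9.38 and 9.65 (log2 ratio -1.16 ± 0.17, adjusted p = 0.00899). Mpzl2, a cell adhesion gene, had a log2 ratio of -1.50 ± 0.28 and Rtp3 of -1.02 ± 0.16. The alcohol dehydrogenase gene Adh7 was at 9.79, 9.51 and 9.72 against 8.77, 8.59 and 8.66 (adjusted p = 0.0235), and all 3 genes had detected signal in all 6 livers.

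Other falls reached the detection limit. Ctsj, a cathepsin gene, was detected in IDA livers at 7.57, 7.28 and 7.11 and undetected in KO livers at 5.12, 5.46 and 5.84, at least 1.96-fold lower (adjusted p = 0.0011). The cytochrome P450 gene Cyp2g1 was at 7.12, 7.60 and 6.87 against 5.69, 5.57 and 5.68, at least 1.8-fold lower (adjusted p = 0.00262). It was the only one of 36 measured members of the list of drug-metabolizing P450 genes to pass. Setmar and Tom1l2 were at least 1.81-fold and 1.3-fold lower. Sox18, an endothelial transcription factor gene, was at 6.47, 8.30 and 7.55 against 6.01, 5.77 and 5.42, at least 2.13-fold lower (adjusted p = 0.0392), with 2 of 3 IDA livers detected. Il1r1 was likewise detected in 2 IDA livers, at 6.62, 7.70 and 6.91 against 5.68, 5.85 and 5.99, at least 1.65-fold lower (adjusted p = 0.0229), and Rec8 in 1 IDA liver, at least 1.05-fold lower.

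Jaml, an adhesion molecule gene, was at 7.89, 7.94 and 8.55 against 5.83, 5.72 and 6.98 (log2 ratio -1.95 ± 0.30, adjusted p = 0.00942), with 1 KO liver detected. Frat2, Lor, Mrgbp and Tnik were also detected in 1 KO liver each, with log2 ratios of -1.53, -1.41, -1.20 and -1.12. Thbd, which encodes the endothelial anticoagulant thrombomodulin, was at 7.96, 7.24 and 8.12 against 7.03, 5.79 and 6.52 (log2 ratio -1.33 ± 0.30, adjusted p = 0.0425).

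**Figure D4:**
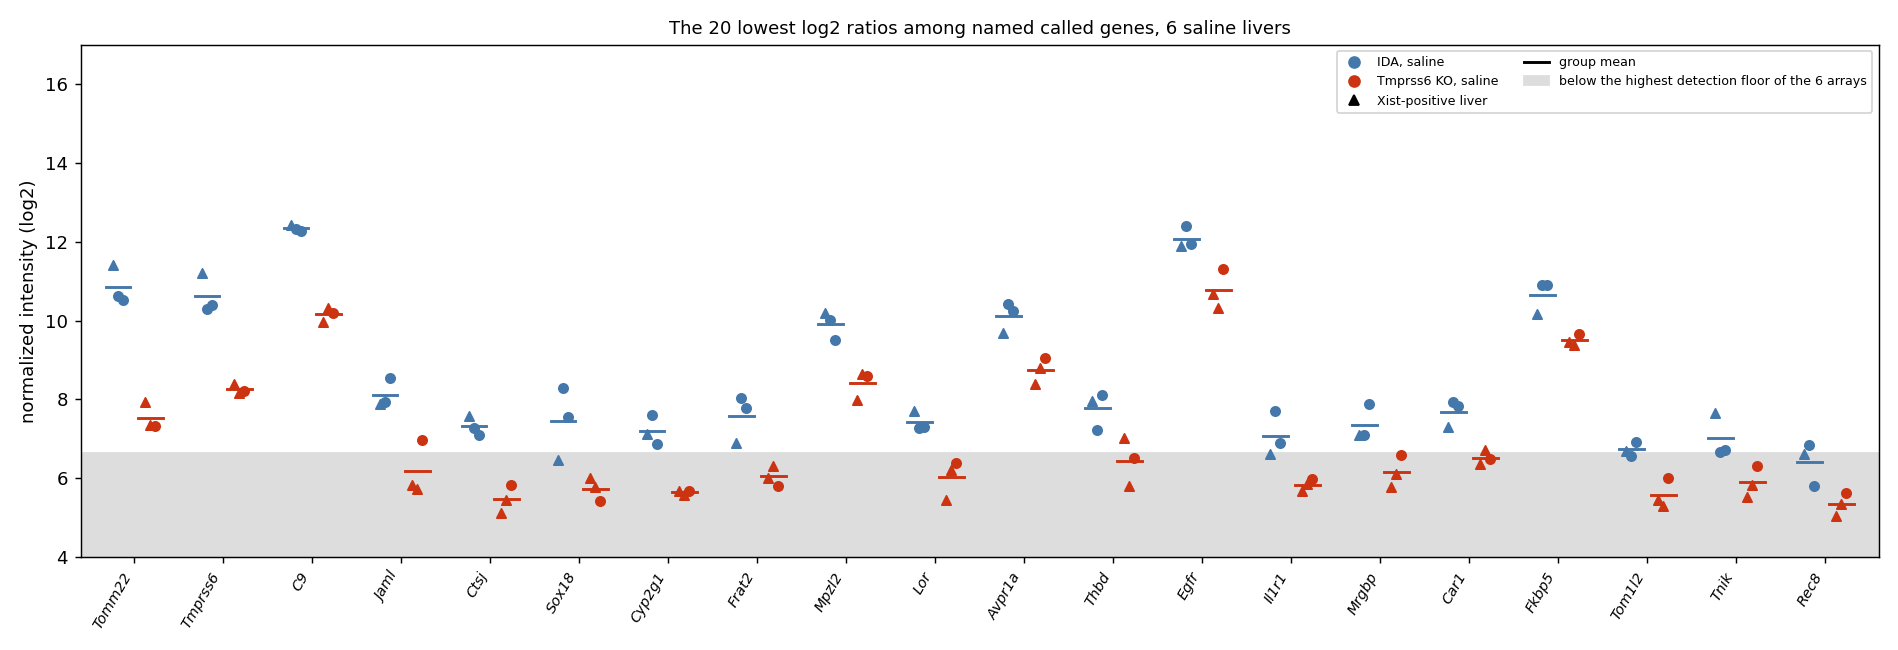
Normalized intensity (log2) of the 20 named called genes with the lowest log2 ratios in each saline liver, with group means as lines and Xist-positive livers as triangles. Tomm22, Tmprss6 and C9 show the widest gaps, and the KO livers of Ctsj, Cyp2g1 and Tom1l2 lie in the grey band below the highest detection floor of the 6 arrays.

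Iron genes outside the hepcidin pathway did not pass the test. None of 22 measured genes of iron transport and storage and none of 21 genes of heme synthesis, breakdown and scavenging passed, with median log2 ratios of -0.01 and 0.07. The ferritin heavy chain gene Fth1 was at 15.91, 15.96 and 15.89 in IDA and at 15.96, 15.92 and 15.91 in KO livers, and the transferrin gene Trf lay between 15.98 and 16.01 in all 6. These values are near the top of the normalized scale, at 16.04. Tfrc, the transferrin receptor gene, singled out after its values were seen, was at 12.49, 12.61 and 12.64 in IDA, at 12.53 in KO 1, and at 10.56 and 10.95 in KO 2 and KO 3 (log2 ratio -1.24 ± 0.40, adjusted p = 0.138).

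Among blood cell markers, no erythroid gene passed upward, although the summed erythroid signal did not overlap between the groups. For single features, the share with all KO livers above was 11%. The summed linear signal of 7 erythroid markers lay between 33010.2 and 58482.2 for IDA livers and between 77716.8 and 153829 for KO livers. Its bulk came from globin, with Hba-a1 at 13.46, 13.07 and 12.59 against 15.02, 13.86 and 14.20 (adjusted p = 0.0556) and Hbb-bs at 14.64, 14.40 and 13.80 against 15.86, 15.06 and 15.10 (adjusted p = 0.0902). Of the 7, 1 passed, downward. It was Car1, the erythroid carbonic anhydrase, at 7.31, 7.92 and 7.84 against 6.37, 6.72 and 6.49 (log2 ratio -1.17 ± 0.22, adjusted p = 0.0229). The part of these markers in the other results was not tested. In whole liver RNA, fewer cells of a type and less RNA per cell cannot be told apart.

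Summed markers of liver endothelium lay between 18563 and 20539 for IDA livers and between 20589.7 and 23529 for KO livers. These groups narrowly did not overlap, and none of the 16 measured endothelial markers passed. The sums overlapped between the groups for 14 Kupffer cell and macrophage markers, 13 stellate cell markers, 7 neutrophil markers, 10 hepatocyte markers and for the short lists of monocyte, cholangiocyte, T and NK cell and B cell markers. Hepatocyte markers had sums of 284328 to 311593 (IDA) and 275786 to 290642 (KO), and the hepatocyte factor gene Hnf4a passed downward (log2 ratio -0.52 ± 0.11, adjusted p = 0.0385). Spic, a factor of iron-recycling macrophages, was undetected in IDA livers and at 7.60, 7.04 and 6.66 in KO livers, at least 1.48-fold higher (adjusted p = 0.0229). Edn1, the endothelin gene, was at least 1.57-fold higher with 2 KO livers detected.

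Of the genes known to differ between male and female mouse livers only Egfr passed the test, downward. The median log2 ratio was 1.34 over 16 measured female-biased genes and -0.98 over 23 male-biased genes. Within the Xist-positive livers the medians were 0.21 and -0.57, and within the others 1.13 and -0.86. The female-biased P450 gene Cyp2b9 was at 13.27, 12.67 and 12.57 in IDA and at 14.47, 13.84 and 14.45 in KO livers (adjusted p = 0.611). The male-biased pheromone carrier gene Mup20 ran from 10.81 to 13.03 in IDA livers, while KO livers lay between 6.13 and 10.84 and overlapped them (adjusted p = 0.11). On the Y chromosome, Uty passed downward with a log2 ratio of -0.50 (adjusted p = 0.0494) at signals near the detection limit, from 6.08 to 6.76, and Kdm5d was at 5.45, 6.73 and 6.63 against 5.11, 5.05 and 6.24.

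The same contrast in the LPS-injected mice, which shares no sample with the saline one, asked which differences recurred in other animals. Every LPS-injected liver was Xist-negative, with Xist at 4.80 to 5.19 and Eif2s3y at 9.70 to 10.16. The saline and LPS contrasts thus also differ in the Xist status of their livers, and its part in the interaction was not tested. After LPS 3.85% of all features were called higher in KO livers and 2.91% lower. Of the 136 features called in saline, 28 were called again in the same direction, 15 higher and 13 lower, and 90 had the same sign. Among them Hamp2, Id1, Atoh8, Ccnd1, Mcm6, Mcm2 and Pdk4 were called higher again, with log2 ratios after LPS of 6.50, 2.16, 1.02, 2.31, 2.66, 1.30 and 1.45. Tmprss6, Tomm22, C9, Egfr, Il1r1, Thbd, Avpr1a, Ctsj, Fkbp5, Tom1l2 and Rtp3 were called lower again, with log2 ratios of -2.02, -3.13, -1.54, -1.22, -1.98, -1.67, -1.12, -1.55, -1.16, -1.27 and -1.30.

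The interaction, the test of the difference between the LPS and the saline ratio, passed for 10.9% of all features. It passed for 58 of the 106 features called higher in saline, and in 57 of these the ratio after LPS was smaller or opposite. It passed for 5 of the 30 called lower, and the difference between the 2 sets was not tested. These features were chosen for a large saline ratio, which the interaction subtracts, so the choice itself favours a smaller ratio after LPS. The median ratio after LPS was 0.31 over the 106 and -0.81 over the 30. There were 7 features called higher in saline and called lower after LPS, among them Gadd45a, Junb, Ier3, Irak2, Cish and Ptpn2, whose ratios after LPS were -1.57, -1.11, -2.35, -1.03, -2.81 and -1.31. No feature called lower in saline was called higher after LPS. Hamp had a log2 ratio of 1.99 after LPS (adjusted p = 0.054), below its saline ratio (interaction adjusted p = 0.00338), and the ratio of Hamp2 was not shown to differ (interaction adjusted p = 0.0701).

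**Figure D5:**
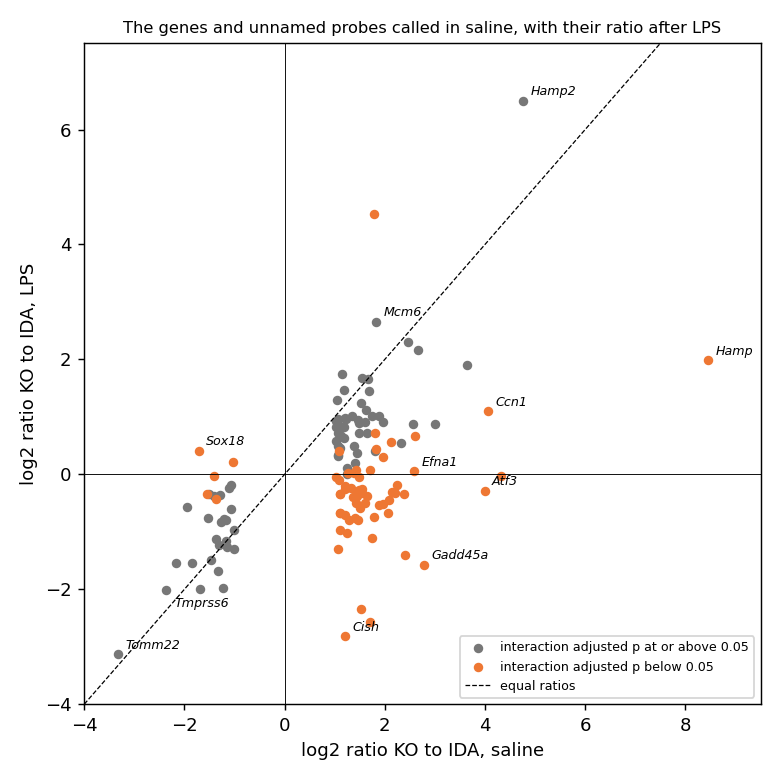
Log2 ratio of KO to IDA in saline (x axis) and after LPS (y axis) for the 136 features called in saline, orange where the interaction had an adjusted p below 0.05. On the right, 57 of the 58 orange features lie below the dashed line of equal ratios, and on the left 5 of the 30 lower features are orange.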

How the data were processed

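Total RNA of 12 individual mouse livers was hybridised to MouseWG-6 v2 BeadChips. The authors deposited, for every probe and array, a non-normalized intensity with its detection p-value, and a table of intensities they had normalized by the cubic spline of GenomeStudio. Here neqc of limma 3.58.1 (R 4.3.3) corrected the non-normalized intensities for background, using the detection p-values in place of control probes and an offset of 16, and set the arrays to a common distribution, and log2 values were used throughout. Probes with a detection p below 0.01 on at least 1 of 12 arrays were kept (16286), and the brightest represented its symbol, leaving 11571 features, 9307 of them named. The platform annotation gave 1 symbol to 34885 probes, several to 18 and none to 10378; probes with several or none were left unnamed, and list genes without a named probe were not analysed here. Sequences and updated names were from RefSeq.

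A linear model with 4 group means over all 12 arrays gave the KO minus IDA contrasts in saline and after LPS and their interaction (8 residual degrees of freedom, moderated by eBayes). A feature was called at an adjusted p below 0.05 and an absolute log2 ratio above 1. The fit was tested on simulated data. Array signals carry no read depth, and 3 livers per group limit the precision.

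The members, the 52 gene lists (42 pathways and 10 sets of cell type markers) and the tests were chosen with earlier results of these data known, so list counts are descriptions. Genes named in the text were Tmprss6, the hepcidin and BMP-SMAD list, the 20 highest and 20 lowest ratios among named called genes, called members of other lists (at most 8 by size), the 2 brightest members of lists with none called where these are discussed, and the sex chromosome genes. The further genes Slc25a25, Snai2, Spic, Edn1, Setmar, Rtp3, Adh7, Tubb2b, Tfrc, Mup20, Hba-a1, Hbb-bs, Ddit3, Per1, Vegfa, Il6ra, Il6st, Hnf4a, Junb, Dusp1, Ier3, Klf6, Csrnp1, Zfp36l1, H3c1, H4c9, H4c11, H3c6, Cdc42ep1, Ift27 and Csnk1e were chosen after their values were seen. Alternatives were other normalizations, filters, probe choices, models and sample sets.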

Additional observations from a re-analysis of the deposited data

Results flagged for a closer look

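For 45 of 113 genes examined one by one, the log2 ratio of KO to IDA livers differed between LPS and saline by the test of the difference itself, limma's interaction with an adjusted p below 0.05. Each value given here is the ratio after LPS less the ratio in saline, from 3 livers in each of the 4 groups. The LPS-injected livers were all Xist-negative, while 3 saline livers were Xist-positive. In the hepcidin and BMP-SMAD list the values were Hamp (-6.47), Id3 (-1.56), Smad1 (-0.68) and Neo1 (0.89), where Smad1 and Neo1 had not passed in saline. Among immediate-early genes they were Gadd45a (-4.36), Atf3 (-4.28), Ier3 (-3.88), Gadd45b (-3.79), Ccn1 (-2.96), Junb (-2.87), Jun (-2.47), Klf6 (-2.25), Plk3 (-1.74), Csrnp1 (-1.41), Zfp36l1 (-1.15) and Dusp6 (-1.09). Among histone genes they were H4c17 (-2.54), H4c18 (-2.53), H4c12 (-2.42), H4c6 (-2.42), H4c11 (-2.16), H3c6 (-2.09), H3c7 (-2.09), H4c1 (-2.03), H4c9 (-1.93) and H3c1 (-1.75), with signal shared between probes of the family not told apart. Genes of cytokine and stress signalling gave Cish (-4.01), Ccl4 (-2.53), Ptpn2 (-2.38), Irak2 (-2.27), Ddit3 (-2.45) and Ppp1r15a (-1.77). Genes of metabolism and hypoxia gave Hilpda (-2.75), Irs2 (-2.50), Igfbp1 (-2.10), Slc25a25 (-1.66), Depp1 (-1.58), P4ha1 (-1.44) and Trib1 (-1.25), and other genes higher in saline gave Efna1 (-2.53), Snai2 (-1.88), Edn1 (-1.79) and Spic (-1.36). Of the genes called lower in saline, the values were Cyp2g1 (1.22) and Sox18 (2.12). In all 45 the ratio after LPS was nearer to 0 or of opposite sign. Most of these genes were chosen for a large saline ratio, which favours a smaller ratio after LPS. The cause was not tested.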

How the results depend on the processing

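The call of 136 features (106 higher, 30 lower, 28 called again after LPS) stayed within 1.5 times under median scaling, the other filters, the mean of detected probes, eBayes with trend and robust and Xist status as a covariate, except as follows. The authors' normalized intensities gave 68 (59 higher, 9 lower, 14 again) and no background correction 65 (56, 9 and 14), with 64 and 63 of the 136 among them. Only the 6 saline arrays gave 39 (30 and 9), 38 of them shared. No fold threshold gave 289 (184, 105 and 121). With every probe as its own row 46 probes were lower and 45 were called again. Without the 3 Xist-positive livers 73 were called (52 higher, 21 lower, 17 again), 47 of them shared. Leaving out 1 saline liver gave 63 to 215 (44 to 157 higher, 19 to 58 lower, 17 to 51 again), highest without IDA 1 and lowest without KO 2. With the replicate number as a block (replicate block) 135 were called (104 higher, 31 lower, 36 again), 119 of them shared. Of the 3 IDA livers only IDA 3 deviated most like the KO liver of its own number. Same-numbered deviations from the group means correlated at -0.02, -0.05 and 0.24. With means of 3 livers, these values cannot decide whether the numbers pair the livers. Hamp, Hamp2, Atoh8, Depp1, Dusp6, Efna1, Snai2, Tmprss6, Tomm22, Ctsj and Setmar passed the adjusted p in all 19 alternatives with a test of single genes, and 33 named genes passed whenever 1 liver was left out. Of 2144 gene values, 1652 kept their side of the threshold and 467 no longer passed. The sign turned in 16, all of genes that did not pass. They were Fth1 (-0.0044 with median scaling, -0.018 without Xist-positive livers, -0.0071 to 0.029 leaving out 1 liver), Tfr2 (0.021 with the mean of probes), Neo1 (0.28 with the mean of probes), Bmper (0.011) and Eif2s3y (0.29) without Xist-positive livers, and Eif2s3y (0.16) with Xist as covariate. Leaving out 1 liver gave Hfe -0.22 to 0.058, Hjv -0.21 to 0.098, Bmper -0.22 to 0.022, Neo1 -0.17 to 0.0298 and Tfr2 -0.095 to 0.0028. Causes were not tested. Signals near the detection floor limit the genes given as bounds.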
